A study of Mus musculus with 18 samples.

Results

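A set of 10 transcripts that are best known from the somatic cells of the ovarian follicle, or that those cells carry in quantity, were followed through 18 single mouse oocytes. They are Inha, Inhba, Inhbb, Fst, Gja1, Npr2, Nap1l5, Nupr1, Fos and Malat1, 10 of the 47069 genes in each deposited table, and they were selected on their measured levels in these oocytes, chiefly those in 1 oocyte that stood apart. Their levels, and the differences between groups in them, are therefore descriptions and carry no test. All 10 symbols matched an Ensembl identifier, and 6 of the 10 (Inha, Gja1, Nap1l5, Nupr1, Fos and Malat1) passed the filter on low counts, as 12037 genes did.

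The oocytes came from wild type C57BL/6 mice of 6 weeks or 12 months, and each of 6 groups held 3 oocytes. GV-6wk and GV-12m were germinal vesicle oocytes, which are arrested in the first meiotic prophase inside the follicle. IVM-MII-6wk and IVM-MII-12m were matured in vitro to metaphase II without co-culture, and MSC-IVM-MII-6wk and MSC-IVM-MII-12m were matured to the same stage together with cells that the labels call MSC and do not spell out. Each oocyte was lysed gently, the nucleus was spun down, and the supernatant was used for the library. RNA held in the nucleus may thus be under-represented in GV oocytes. A metaphase II oocyte has no intact nucleus, so this loss may differ between the stages, and it was not tested. The labels name no animal, litter or culture for any oocyte, so the 3 oocytes of a group counted as 1 sample and no p-value was computed. Oocyte numbers follow deposit order and only name an oocyte. An SD over 3 oocytes measures the spread between those cells.

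In the growing follicle, granulosa cells surround the oocyte and those nearest to it, the cumulus cells, reach it through gap junctions. Inhibins and activins are dimers built from shared subunits: the alpha subunit (Inha) pairs with a beta subunit (Inhba or Inhbb) to form an inhibin, while beta subunits pair with each other to form activins, which follistatin (Fst) binds and neutralises. Gja1 encodes connexin 43, the main gap junction protein between granulosa cells, whereas the oocyte's own connexin is connexin 37 (Gja4). Npr2 encodes the guanylyl cyclase receptor of C-type natriuretic peptide (Nppc), whose cyclic GMP passes from granulosa cells into the oocyte and holds it in meiotic arrest. Nap1l5 is a paternally expressed imprinted gene of the nucleosome assembly protein family. Nupr1 is a stress-induced nuclear protein gene, Fos is an immediate early gene that encodes an AP-1 subunit, and Malat1 is an abundant long noncoding RNA of the nucleus. The last 3 are widely expressed and do not define granulosa cells.

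Promoter sequence was examined because Fos and other immediate early genes moved together with the follicle transcripts in 1 oocyte, as described further on. Windows of 250 bases before the RefSeq start (GRCm38.p6) were on hand for 9 of the 10 genes, the exception being Fst, and 6 motifs were searched on both strands. TGACG, the core of the cyclic AMP response element, was present in 3 of the 9 windows (Gja1, Fos and Malat1) and in 17.8% of all 32851 windows of that length. The whole element TGACGTCA, within which TGACG lies, was in 0 of the 9 and in 1.55% of all. The AP-1 motif TGANTCA and the GATA motif AGATAA were in the Gja1 window alone of the 9, against 6.75% and 9.99% of all windows. AAGGTCA, the motif of NR5A1 and NR5A2, was in 0 of the 9 and in 4.08% of all, and CC and GG spaced by any 6 bases, the form of the serum response element, was in 5 of the 9 (Inha, Inhbb, Npr2, Nupr1 and Fos) and in 67.1% of all. These are matches of letters in a window and not sites of binding. The windows of Inha (chr1:75507359-75507608) and Nupr1 (chr7:126625471-126625720) lie inside the gene extents given further on. Sequence before the outer end of those 2 genes was therefore not searched. The 3 windows that hold TGACG are shown 5′ to 3′ on the gene's strand, with TGACG or its reverse complement and TGANTCA in capitals. They are chr10:56377050-56377299 (plus strand), chr12:85473640-85473889 (plus strand) and chr19:5802673-5802922 (minus strand).
Gja1: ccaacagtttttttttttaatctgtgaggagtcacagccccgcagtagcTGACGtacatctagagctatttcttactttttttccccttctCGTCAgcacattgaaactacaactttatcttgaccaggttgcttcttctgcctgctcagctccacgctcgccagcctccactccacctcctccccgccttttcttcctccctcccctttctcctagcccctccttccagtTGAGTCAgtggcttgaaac
Fos: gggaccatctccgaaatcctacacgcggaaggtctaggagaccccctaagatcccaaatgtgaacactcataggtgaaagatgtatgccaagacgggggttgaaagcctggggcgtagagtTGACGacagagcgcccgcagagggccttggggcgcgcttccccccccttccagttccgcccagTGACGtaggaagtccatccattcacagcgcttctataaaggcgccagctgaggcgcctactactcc
Malat1: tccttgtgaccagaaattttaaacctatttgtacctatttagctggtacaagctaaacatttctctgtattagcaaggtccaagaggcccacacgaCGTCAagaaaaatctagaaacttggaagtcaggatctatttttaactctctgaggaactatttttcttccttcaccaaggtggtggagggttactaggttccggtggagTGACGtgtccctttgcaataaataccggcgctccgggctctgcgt
TGACG began 201 and 159 bases before the start of Gja1, 129 and 66 bases before that of Fos, and 154 and 45 bases before that of Malat1. TGANTCA began 19 bases before the start of Gja1.

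Library totals ran from 1914072 to 9193559 expected counts. Levels are given in CPM, counts scaled to a common library total after TMM normalisation, and a level of 0 means no count in that library. The TMM factor was 1.43 in GV-12m oocyte 3 and 0.713 to 1.07 in the other 5 GV oocytes. Scaling by library total would therefore raise the levels of GV-12m oocyte 3 relative to theirs. The 10 transcripts were carried mainly by GV oocytes, and 1 oocyte, GV-12m oocyte 3, held by far the most of them. Their summed level was 4364 CPM in that oocyte, which is 0.616% of its counts. It was 70.7 to 188.7 CPM across the other 5 GV oocytes (median 111.8) and 1.34 to 1086 CPM in the 12 metaphase II oocytes (median 18.7). Of 50 pairings of a transcript with one of the other 5 GV oocytes 38 held a count, against 29 of 120 pairings in metaphase II oocytes. The number of the 10 with a count was 6, 8 and 7 in GV-6wk oocytes 1 to 3 and 8, 9 and 10 in GV-12m oocytes 1 to 3, and it was 1 to 5 in metaphase II oocytes. With every library thinned to the smallest total, the numbers were 6 to 8 in the other 5 GV oocytes, 10 in GV-12m oocyte 3, and 1 to 4 in metaphase II oocytes.

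**Figure D1:**
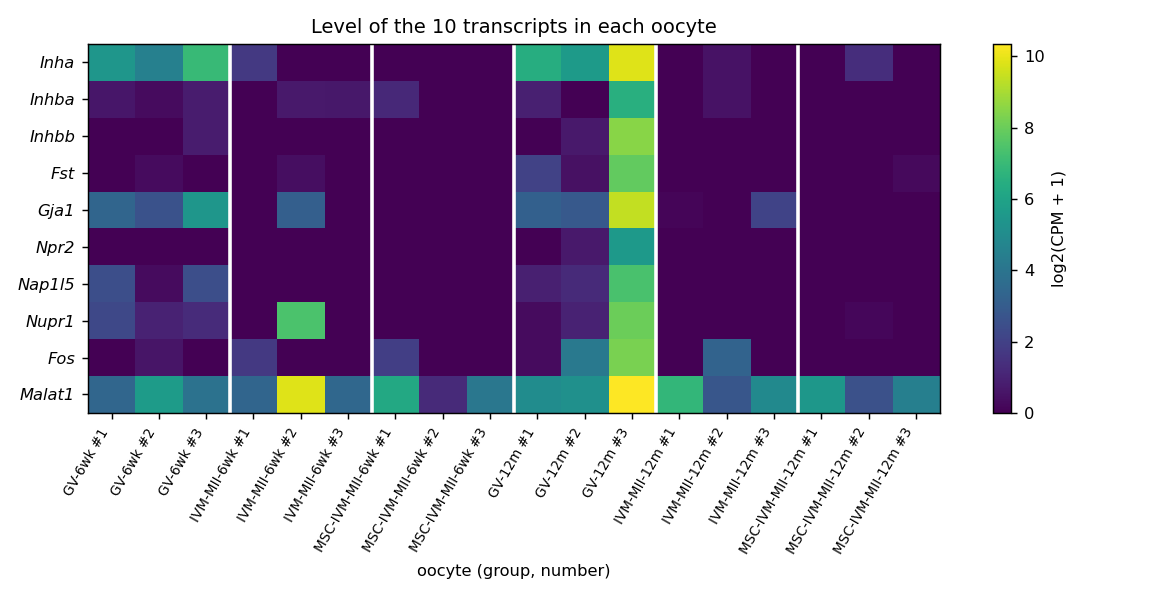
Level of the 10 transcripts (rows) in each of the 18 oocytes (columns, ordered by age and stage, with white lines between groups) as log2(CPM + 1), shown by colour from 0 to the highest value. The column of GV-12m oocyte 3 is the highest in every row, IVM-MII-6wk oocyte 2 is the second highest for Nupr1 and Malat1, and Malat1 is the only row with a count in all 18 oocytes.

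Inha, on chromosome 1 (ENSMUSG00000032968, GRCm38 75507077 to 75510366, plus strand), was the most regular of the set in GV oocytes. Its level was 42.7, 21.4 and 125 CPM in the 3 GV-6wk oocytes and 85.1, 48.0 and 917 CPM in the 3 GV-12m oocytes, and 1 oocyte of each group stood above its companions. In metaphase II oocytes it had counts in 3 of 12, at 2.25 CPM in IVM-MII-6wk oocyte 1, 0.401 CPM in IVM-MII-12m oocyte 2 and 1.53 CPM in MSC-IVM-MII-12m oocyte 2. No metaphase II oocyte reached the lowest GV oocyte. The group means were 63.1 ± 54.8 CPM (SD, n = 3) in GV-6wk and 350.2 ± 491.6 CPM (SD, n = 3) in GV-12m, where the SD exceeds the mean because of oocyte 3.

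The beta subunits and follistatin followed another pattern, with almost nothing outside GV-12m oocyte 3. Inhba (ENSMUSG00000041324, chromosome 13, 16011851 to 16031621, plus strand) reached 91.5 CPM there, from 604 counts. Elsewhere it was at most 1.27 CPM, in MSC-IVM-MII-6wk oocyte 1, although 9 of the 18 oocytes held at least 1 count of it. Inhbb (ENSMUSG00000037035, chromosome 1, 119415465 to 119422248, minus strand) stood at 364.9 CPM in GV-12m oocyte 3, from 2409 counts, and had counts in 2 other oocytes only, at 0.710 CPM in GV-6wk oocyte 3 and 0.629 CPM in GV-12m oocyte 2. No count of Inhbb was found in the 12 metaphase II oocytes. Fst (ENSMUSG00000021765, chromosome 13, 114452290 to 114458951, minus strand) stood at 233.6 CPM in the same oocyte, from 1542 counts, at 3.12 CPM in GV-12m oocyte 1, and at 0.377 CPM or less in the remaining 16. The balance of these genes thus differed between oocytes. The ratio of Inhbb to Inha in CPM was 0.00415 over those 5 and 0.398 in GV-12m oocyte 3, and that of Fst to Inha was 0.0116 and 0.255.

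Receptors, SMADs and other genes of activin and inhibin signalling did not, as a sum, set that oocyte apart. The list of 14 such genes summed to 97.1 CPM in it and to 58.5 to 125.8 CPM across the other 5 GV oocytes. Of the 14, 1 was highest there, where 13.2% of all genes with a count were. Smad2, an activin signal transducer, stood at 27.4 CPM there (19.8 to 62.0 CPM in the rest), and Fstl3, a relative of follistatin, at 6.51 CPM against 5.35 to 26.5 CPM. For GV-12m minus GV-6wk, 2 of the 9 list genes that passed the filter were higher by at least 1 on the log2(CPM + 1) scale and 0 lower, where 9.46% of all genes were higher and 4.28% lower, with a median of 0.41 against 0.12 over all 12037 genes. Without that oocyte 1 of the 9 was higher, and the median was 0.05.

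Gja1 (ENSMUSG00000050953, chromosome 10, 56377330 to 56402513, plus strand) had a count in every GV oocyte. Its level was 9.41, 5.11 and 41.9 CPM in GV-6wk and 8.02, 6.54 and 674 CPM in GV-12m. Of the metaphase II oocytes 3 held counts, IVM-MII-6wk oocyte 2 at 7.77 CPM, IVM-MII-12m oocyte 3 at 3.19 CPM and IVM-MII-12m oocyte 1 at 0.121 CPM. No Gja1 count was found in the 6 oocytes matured with MSC. The oocyte's own connexin gene, Gja4, was lower on the TMM scale in GV-12m oocyte 3, at 600.2 CPM, than in the other 5 GV oocytes, at 824 to 1268 CPM. This gap is small and may not hold under another scaling. The ratio of Inha to Gja1 was 4.54, 4.19 and 2.99 in GV-6wk and 10.6, 7.35 and 1.36 in GV-12m, so the oocyte with the most of both held the most Gja1 relative to Inha.

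**Figure D2:**
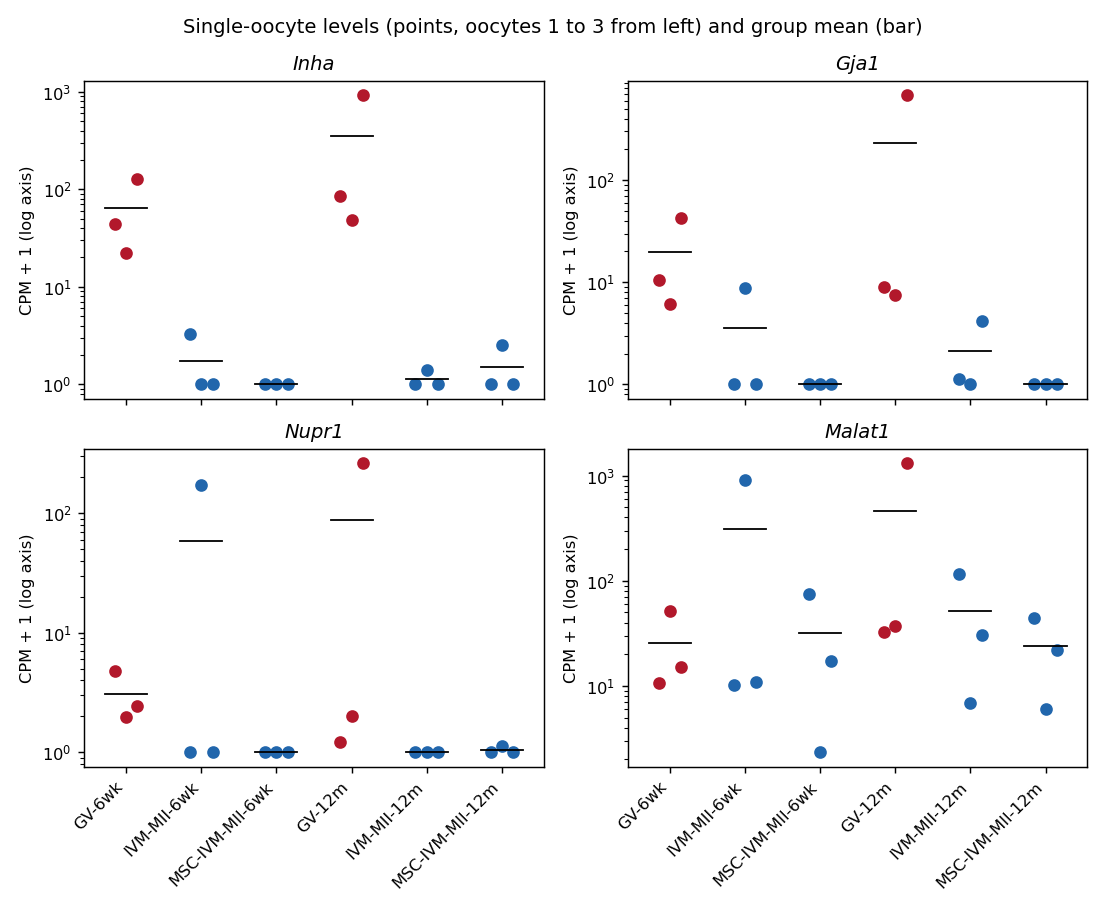
Levels of Inha, Gja1, Nupr1 and Malat1 in single oocytes (points, from left to right oocytes 1 to 3; red for germinal vesicle and blue for metaphase II) with group means (bars), on a log axis of CPM + 1. Inha separates the germinal vesicle groups from the metaphase II groups, whereas Nupr1 and Malat1 are high in GV-12m oocyte 3 and IVM-MII-6wk oocyte 2.

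Npr2 (ENSMUSG00000028469, chromosome 4, 43631935 to 43651244, plus strand) was found in the fewest oocytes. It stood at 46.2 CPM in GV-12m oocyte 3, and at 0.629 CPM, from 5 counts, in GV-12m oocyte 2, and no other oocyte held a count. Its ligand gene Nppc had 3.33 CPM in GV-12m oocyte 3 and at most 0.503 CPM across the other 5 GV oocytes. The 8 further genes of natriuretic peptide and cyclic GMP signalling summed to 45.8 CPM in that oocyte and to 42.5 to 76.9 CPM in the other 5. Pde3a, the phosphodiesterase of the oocyte that breaks down cyclic AMP, was at 18.5 CPM there against 2.48 to 21.6 CPM, and Prkg1, a cyclic GMP-dependent protein kinase gene, at 15.8 CPM against 33.6 to 47.9 CPM.

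Nap1l5 (ENSMUSG00000055430, chromosome 6, 58905233 to 58907076, minus strand) was found in all 6 GV oocytes and in none of the 12 metaphase II oocytes. Its level was 4.57, 0.243 and 4.61 CPM in GV-6wk and 0.891, 1.38 and 164.8 CPM in GV-12m. The gene lies inside Herc3 on the opposite strand. Since the strand setting of the counting is not given in the sources used here, reads from the stretch that both genes cover cannot be told apart. Herc3 was at 9.09 CPM in GV-12m oocyte 3 and at most 13.7 CPM in any oocyte. It had counts in 9 of the 12 metaphase II oocytes, where Nap1l5 had none. Of 14 other imprinted and NAP1 family genes 1 was highest in GV-12m oocyte 3, where 13.2% of all genes with a count were. The list summed to 324.9 CPM there against 221 to 358.5 CPM across the other 5 GV oocytes.

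Nupr1 (ENSMUSG00000030717, chromosome 7, 126623249 to 126630861, minus strand) was high in a pair of oocytes. Its level was 3.76, 0.973 and 1.42 CPM in GV-6wk, 0.223, 1.01 and 258.9 CPM in GV-12m, 171 CPM in IVM-MII-6wk oocyte 2 and 0.139 CPM in MSC-IVM-MII-12m oocyte 2. No count was found in the other 10 metaphase II oocytes. The integrated stress response, with which Nupr1 is often grouped, did not stand out in GV-12m oocyte 3: its 11 list genes summed to 328 CPM against 260.0 to 394.5 CPM across the other 5 GV oocytes, with Ddit3 at 96.0 CPM (88.5 to 176.9 CPM) and Atf4 at 113 CPM (79.0 to 187.8 CPM). Herpud1, at 13.9 CPM against at most 1.22 CPM, was among the 3 of 11 list genes highest there, where 13.2% of all genes with a count were.

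Fos (ENSMUSG00000021250, chromosome 12, 85473890 to 85477273, plus strand) was at 310.9 CPM in GV-12m oocyte 3 and 17.1 CPM in GV-12m oocyte 2, and at 0.223 CPM in GV-12m oocyte 1. In GV-6wk it had counts in oocyte 2 alone, at 0.487 CPM. In metaphase II it had counts in 3 oocytes, 8.82 CPM in IVM-MII-12m oocyte 2, 2.75 CPM in MSC-IVM-MII-6wk oocyte 1 and 2.25 CPM in IVM-MII-6wk oocyte 1. GV-12m was thus the only group with counts of Fos in all 3 of its oocytes, but this rests on 1 count in oocyte 1. That library had a total of 6317859 counts, against 3096673 to 3895017 in GV-6wk.

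Malat1 (ENSMUSG00000092341, a lincRNA gene on chromosome 19, 5795690 to 5802672, minus strand) was the only one of the 10 with counts in all 18 oocytes. Its level was 9.68, 50.4 and 14.2 CPM in GV-6wk and 31.4, 36.1 and 1301 CPM in GV-12m. In IVM-MII-6wk it was 9.24, 907 and 9.99 CPM and in MSC-IVM-MII-6wk 74.4, 1.34 and 16.2 CPM. It was 115.7, 5.81 and 29.5 CPM in IVM-MII-12m and 43.3, 5.00 and 20.98 CPM in MSC-IVM-MII-12m. Apart from the 2 highest oocytes the groups overlapped, except that IVM-MII-6wk (9.24 and 9.99 CPM) lay below GV-12m (31.4 and 36.1 CPM). A gene model on the opposite strand within Malat1, Gm37376, was at 379 CPM in GV-12m oocyte 3 and 360.6 CPM in IVM-MII-6wk oocyte 2, and its reads and those of Malat1 cannot be told apart. Other long noncoding RNAs of the nucleus were low throughout, although 8 of 9 on the list were highest in GV-12m oocyte 3, as were 13.2% of all genes with a count. The list summed to 59.4 CPM there against 12.4 to 21.2 CPM across the other 5 GV oocytes. Neat1, the paraspeckle RNA whose gene neighbours Malat1, was at 4.55 CPM there and at most 0.223 CPM in any other oocyte.

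All 10 transcripts had their highest level in GV-12m oocyte 3, and all 10 were above 20 CPM there. In the same oocyte 8.91% of the 12037 filtered genes and 11.6% of the 5046 genes at 20 CPM or more were at their highest of the 18 oocytes, and since the set was chosen with this oocyte known nothing is read from the comparison. The ratio to the next highest oocyte was at least 10 for 7 of the 10, as for 0.832% of those 5046 genes, and at least 5 for 8 of the 10, as for 1.72%. It was 514 for Inhbb, 74.9 for Fst, 73.5 for Npr2, 72.2 for Inhba, 35.7 for Nap1l5, 18.2 for Fos, 16.1 for Gja1 and 7.33 for Inha. It was 1.51 for Nupr1 and 1.44 for Malat1, for both of which IVM-MII-6wk oocyte 2 came next. The counts behind the next oocyte are few for Inhbb, Fst, Npr2 and Inhba, so those ratios are imprecise.

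The level over the mean of the other 5 GV oocytes was 14.2-fold for Inha, 45.9-fold for Malat1, 47.5-fold for Gja1, 70.5-fold for Nap1l5, 87.3-fold for Fos and 175-fold for Nupr1. These folds thus differed between transcripts, but some rest on few counts in the other 5 oocytes. Nupr1 had 31 counts and Nap1l5 46 across those 5. Of the 139 Fos counts there, 136 were in GV-12m oocyte 2. What lies behind the differing folds was not tested. On the TPM scale, which adjusts for transcript length, the order within GV-12m oocyte 3 was Malat1 at 3606, Inha 1049, Nupr1 663, Gja1 322.7, Fos 231, Fst 154, Nap1l5 150.2, Inhbb 124, Inhba 98.3 and Npr2 33.8 TPM. Both beta subunits and Fst therefore lay between 98.3 and 154 TPM, below the alpha subunit.

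The label of these transcripts as granulosa RNA was compared with 22 further granulosa and cumulus markers, which bore it out only in part. They summed to 858 CPM in GV-12m oocyte 3 and to 334.7 to 617 CPM across the other 5 GV oocytes. Serpine2 and Esr2, described further on, were the largest parts of the sum in GV-12m oocyte 3. Of the 22 markers 19 had a count in it and 8 were highest there, where 13.2% of all genes with a count were. Hsd17b1, the granulosa enzyme that makes estradiol from estrone, stood at 137.6 CPM against 2.19 to 22.0 CPM. Kctd14 stood at 99.8 CPM against 0 to 28.4 CPM, and Slc18a2 at 32.4 CPM against 4.68 to 8.51 CPM. The nuclear receptors of granulosa cells Nr5a2 and Nr5a1 stood at 30.6 CPM (5.64 to 10.5 CPM) and 26.5 CPM (0 to 2.13 CPM). Fshr, the receptor for follicle-stimulating hormone, was at 6.97 CPM against at most 0.251 CPM.

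Several markers of the list were absent or near 0 in that oocyte, some of them as in all other oocytes. Foxl2, the transcription factor of granulosa identity, was at 0.303 CPM, and Amh and Lhcgr had no count. These 3 were low throughout, with at most 0.710, 0.754 and 1.78 CPM in any oocyte. Star had no count, against at most 8.465 CPM in the other 5 GV oocytes. Cyp11a1 was at 0.152 CPM (1.13 to 40.5 CPM in those 5) and Wt1 at 1.82 CPM (0 to 5.32 CPM). Cyp19a1, the aromatase gene, was at 16.2 CPM, below the 19.8 to 33.0 CPM of the other 5 GV oocytes. Esr2 was also below them, at 154.8 CPM against 176.6 to 264.9 CPM. Both gaps are small and rest on the TMM scale, so they may not hold under another scaling. Serpine2, at 275.6 CPM, lay within the range of the other 5 (18.7 to 344 CPM), and was highest, at 1294 CPM, in IVM-MII-6wk oocyte 1. Cyp19a1 had counts in 10 of the 12 metaphase II oocytes, and Esr2 and Serpine2 in all 12. Their metaphase II medians were 26.5, 115.5 and 168 CPM, so in these data they did not set apart oocytes that carry the 10 transcripts. Of 8 cumulus expansion genes 6 had counts in GV-12m oocyte 3, and 5 were highest there, where 13.2% of all genes with a count were. This list did stand out in that oocyte, with a sum of 33.3 CPM against 0 to 5.28 CPM across the other 5 GV oocytes. Vcan was at 25.4 CPM (0 to 5.28 CPM in those 5) and Has2 at 4.70 CPM (0 to 0.487 CPM). Ptx3 and Ereg had no count in any oocyte.

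Summed markers of each other cell type in GV-12m oocyte 3 lay within or below the range of the other 5 GV oocytes. None of 10 blood and immune markers had a count in it. Of 10 theca and stroma markers 1 did, Ptch1, a hedgehog receptor gene, at 12.6 CPM, while Cyp17a1, Col1a1, Col3a1 and Dcn had none. Its hedgehog ligand gene Ihh, made by granulosa cells, had 17.3 CPM, and 4.97 CPM or less in the other GV oocytes. Mesenchymal stromal cell markers summed to 79.4 CPM against 122 to 207.6 CPM across the other 5 GV oocytes, most of it Mmp2 at 64.4 CPM, and Thy1, Eng, Nt5e and Cxcl12 had no count in any of the 18. Endothelial markers summed to 15.2 CPM against 1.08 to 16.1 CPM, with no count of Cdh5 or Emcn in any oocyte.

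Genes that mark the oocyte itself were present. The 12 oocyte markers summed to 17150 CPM in GV-12m oocyte 3 and to 36220 to 89580 CPM across the other 5 GV oocytes, and 0 of the 12 were highest there. Of the 12, 6 lay below the range of those 5 oocytes and 6 within it. These positions are on the TMM scale, and the narrower gaps may not hold under another scaling. Gdf9, a growth factor by which the oocyte acts on granulosa cells, was at 1562 CPM against 12080 to 18970 CPM, and Zp3, a zona pellucida gene, at 2067 CPM against 6187 to 20780 CPM. Bmp15, its partner growth factor gene, was within range at 206.8 CPM (67.4 to 333 CPM). This library had 16036 genes with a count, the most of the 18, and a mitochondrial share of 3.65% of counts, within the 0.917% to 3.70% of the other 5. Its total of 4679473 counts was between the lowest and highest of all libraries. RNA made by the oocyte and RNA of cells attached to it cannot be told apart in a library of 1 lysed oocyte. The labels' title prefix of this oocyte is shared by 3 metaphase II oocytes, whose summed level of the 10 transcripts was 32.7, 6.67 and 21.2 CPM.

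Immediate early genes other than Fos also stood above the other GV oocytes in GV-12m oocyte 3. The 16 genes summed to 716.8 CPM there and to 53.7 to 145.0 CPM across the other 5 GV oocytes. All 16 had a count, and 13 were highest there of all 18 oocytes, where 13.2% of all genes with a count were. Of the 16, 7 were at 20 CPM or more and at least 5 times the next oocyte, as for 1.72% of the 5046 genes at that level. The list was chosen with earlier results of these data known, so these counts are descriptions. Fosb, a further AP-1 subunit gene, was at 147.7 CPM against at most 0.754 CPM across the other 5 GV oocytes, and Nr4a1, an orphan nuclear receptor gene, was at 71.8 CPM with no count in the other 5. Jun was at 55.9 CPM (0 to 1.38 CPM), Egr1 at 52.3 CPM (0.355 to 4.78 CPM), Ier2 at 48.3 CPM (0.377 to 2.42 CPM) and Zfp36 at 48.0 CPM (0 to 0.754 CPM). Dusp1, a phosphatase gene of the same class, was within range at 38.6 CPM (19.4 to 111.7 CPM), and was higher in all 12 metaphase II oocytes, at 100.3 to 364 CPM.

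**Figure D3:**
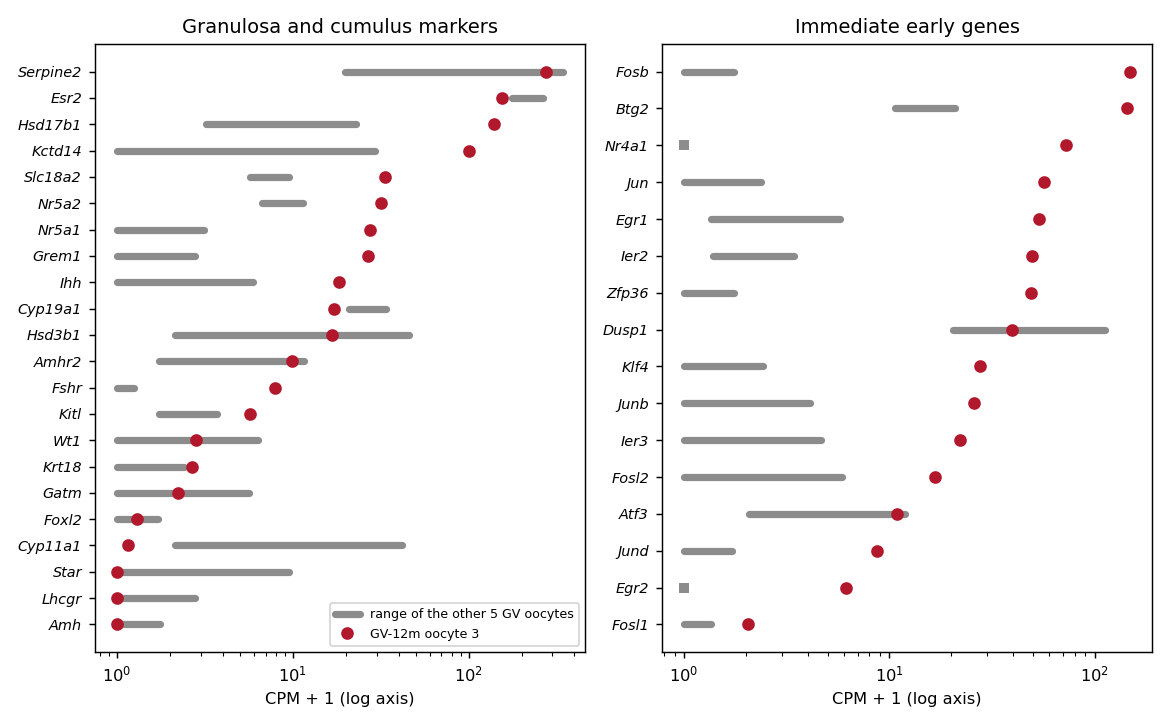
Level of 22 granulosa and cumulus markers (left) and 16 immediate early genes (right) in GV-12m oocyte 3 (red points) beside the range of the other 5 germinal vesicle oocytes (grey bars, or a grey square where all 5 have no count), on a log axis of CPM + 1. Of the 16 immediate early genes 13 were highest in that oocyte of all 18, and 8 of the 22 markers were, where 13.2% of all genes with a count were. On the TMM scale Esr2, Cyp19a1 and Cyp11a1 lie below the range.

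Genes other than the 10, those of the lists included, were ranked by their level plus 1 in GV-12m oocyte 3 over the highest of the other 17 oocytes. The ranking covered 7195 named genes that reached at least 20 CPM in any oocyte, leaving out predicted genes, Riken clones and pseudogenes. Among the 15 that led were Nr4a1, Fosb and Jun, then Thbs1, the thrombospondin 1 gene, at 86.8 CPM against at most 0.668 CPM. Tent5a had 34.5 CPM and no count in any other oocyte. Slc38a2, an amino acid transporter gene, was at 49.8 CPM against at most 1.01 CPM. With the 10 added, 7205 genes were ranked, of which Inhbb ranked 1, Fst 3, Inhba 5, Nap1l5 7, Npr2 8, Fos 17, Gja1 21, Inha 52, Nupr1 330 and Malat1 361.

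IVM-MII-6wk oocyte 2 carried a different selection of the 10. Malat1 (907 CPM) and Nupr1 (171 CPM) made up most of its summed 1086 CPM, Gja1 was at 7.77 CPM, Inhba at 0.621 CPM and Fst at 0.311 CPM, and Inha, Inhbb, Npr2, Nap1l5 and Fos had no count. Of the granulosa markers, Grem1, an antagonist of bone morphogenetic proteins, was highest in this oocyte at 53.1 CPM, against 25.9 CPM in GV-12m oocyte 3. Its mitochondrial share was 11.7% of counts and 9214 genes had a count. The other 2 oocytes of its group had summed levels of 13.8 and 10.6 CPM.

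Covariation was described with Pearson's r of log2(CPM + 1), with no p, since the oocytes share groups and library preparation. Over the 6 GV oocytes the 45 pairs of transcripts had r from 0.741 to 0.994 (median 0.918), but Spearman's rho had a median of 0.464. Without GV-12m oocyte 3, r over the 5 remaining GV oocytes ran from −0.959 to 0.991 with a median of −0.086, so the common covariation rests on that oocyte. Inha with Gja1 had r = 0.960 over 6 GV oocytes and 0.793 over 5 (rho 0.7), while Inha with Malat1 went from 0.763 to −0.457 and Fst with Nupr1 from 0.902 to −0.788. Over the 12 metaphase II oocytes 21 pairs could be computed, with r from −0.382 to 0.818 (median 0.189). The highest was Gja1 with Nupr1, and among these 12 IVM-MII-6wk oocyte 2 held the highest level of both. With 5 or 6 oocytes, and counts near 0 in many of them, these coefficients are imprecise.

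Genes whose pattern was most like the mean log2(CPM + 1) of the 10 over 18 oocytes were, among the same 7195 genes, Atp1b2 (r = 0.977), a sodium pump subunit gene, then Prrc2b (0.950), Kazald1 (0.948), Gadd45g and Bmp3 (0.945 each), Slc38a2 (0.942), Mbnl2 (0.941), Junb (0.939) and Jun (0.938). Atp1b2 was at 23.5 CPM in GV-12m oocyte 3 and at most 1.86 CPM elsewhere, and each of these named genes was highest in that oocyte. Over the 17 oocytes without it the order was led, among the 6925 genes of at least 20 CPM in any of them, by Chchd10 (0.942), Tceal9 (0.931), Ndufaf5 (0.916) and Ldha (0.915), the lactate dehydrogenase A gene, and none of these was among those named for 18 oocytes. Those most like Inha over 18 oocytes were Ucp2 (0.977), Gstm2 and Idh2 (0.962 each), Cuedc2 (0.955) and Bok (0.954). Each of these 5 had counts in all GV oocytes and at most 0.634 CPM in any metaphase II oocyte.

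Maturation was compared at each age, to ask what changes between the germinal vesicle stage and metaphase II in vitro. At 6 weeks Inha and Nap1l5 were lower in every IVM-MII oocyte than in every GV oocyte, which is 2 of the 10, against 29.2% of the 12037 genes. For Nap1l5 this rests on 1 count in GV-6wk oocyte 2, against no count in IVM-MII-6wk. Inha had a mean of 0.751 ± 1.30 CPM in IVM-MII-6wk, all of it from 1 oocyte and below the level of 3 counts per library, and of 63.1 ± 54.8 CPM in GV-6wk (SD, n = 3 each). Nap1l5 was at least 3.82-fold lower, taking 3 counts per library as the limit of detection. Gja1 was 7.26-fold lower by mean (2.59 ± 4.48 against 18.8 ± 20.1 CPM), with overlap through IVM-MII-6wk oocyte 2. By a difference of at least 1 on the log2(CPM + 1) scale, 3 of 10 were lower and 1, Malat1, was higher. Of the 12037 filtered genes 39.3% were lower and 16.7% higher, and of all genes with a count 23.7% and 9.56%. The median of the 6 that passed the filter was −0.69, against −0.52 over all genes, and −0.77 within title prefixes that both groups hold. Over all 10 it was −0.06, against −0.11 over all genes with a count.

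Nupr1 and Malat1 had higher means in IVM-MII-6wk, 57.0 ± 98.8 against 2.05 CPM and 308.6 ± 517.9 against 24.7 ± 22.3 CPM, and both rest on IVM-MII-6wk oocyte 2. Without it Nupr1 had no count in that group, a difference of −1.50 on the log2(CPM + 1) scale in place of 0.97, and Malat1 had a mean of 9.62 CPM, a difference of −0.93 in place of 1.21.

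At 12 months the IVM-MII mean of all 10 was below the GV mean by at least 1 on the log2(CPM + 1) scale, where 39.0% of all genes were lower and 16.1% higher by that much. The median of the 6 that passed the filter was −3.17, against −0.52 over all genes, and −4.80 within shared title prefixes. Of the 10, 5 (Inha, Fst, Gja1, Nap1l5 and Nupr1) did not overlap between the groups, as for 26.2% of the 12037 filtered genes, which do not include Fst. For 3 of them this rests on few counts against none in IVM-MII-12m. The lowest GV-12m oocyte held 1 count of Nupr1 (oocyte 1), 3 of Fst (oocyte 2) and 4 of Nap1l5 (oocyte 1). Gja1 was 208-fold lower by mean (1.10 ± 1.80 against 229.6 ± 385.0 CPM). Without GV-12m oocyte 3 all 10 differences stayed below 0, but their median was −0.87 and 5 were lower by at least 1, where 38.2% of all genes were. These were Inha (−5.86), Gja1 (−2.30), Fst (−1.25), Fos (−1.14) and Nap1l5 (−1.09). Malat1 was then at 33.8 CPM in GV-12m and 50.3 CPM in IVM-MII-12m by mean, with a difference of −0.26 in mean log2(CPM + 1).

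Age was compared at each stage. This comparison in GV oocytes shares the GV-12m oocytes with the previous one. In it all 10 were higher at 12 months by at least 1 on the log2(CPM + 1) scale. Of the 12037 filtered genes 9.46% were higher and 4.28% lower, and of all genes with a count 6.93% and 2.62%. The median of the 6 that passed the filter was 1.63 against 0.12 over all filtered genes. By group mean Inha was 5.55-fold higher, Gja1 12.2-fold, Nap1l5 17.7-fold, Malat1 18.4-fold and Nupr1 42.3-fold. Fst alone did not overlap between the ages, with 3.67% of all genes higher in every GV-12m oocyte, and this rests on 3 counts (0.377 CPM) in GV-12m oocyte 2 and 1 count (0.243 CPM) in GV-6wk oocyte 2. Without GV-12m oocyte 3 the median of the 10 was 0.22, with 6 above 0 and 4 below. Inhba, Gja1, Nap1l5 and Nupr1 were then lower at 12 months, at −0.11, −0.76, −0.67 and −0.86. Fos (2.04) and Fst (1.15) were still higher by at least 1, as 7.65% of all genes were, Fos with 17.1 CPM in GV-12m oocyte 2 and Fst with 3.12 CPM in GV-12m oocyte 1. Inha was then at 66.6 and 63.1 CPM by mean at 12 months and 6 weeks. Title prefixes differed between the ages throughout, so age and whatever the prefix marks cannot be told apart.

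**Figure D4:**
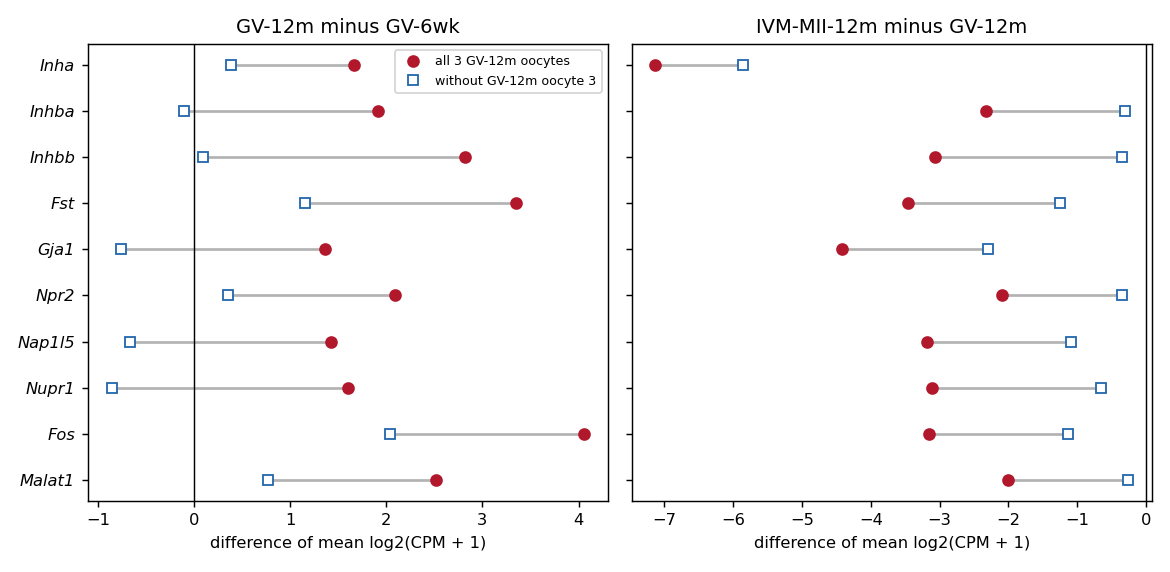
Difference of mean log2(CPM + 1) for each of the 10 transcripts, for GV-12m minus GV-6wk (left) and IVM-MII-12m minus GV-12m (right), with all 3 GV-12m oocytes (red points) and without GV-12m oocyte 3 (open blue squares). On the left 4 transcripts cross 0 when the oocyte is left out, and on the right Inha moves from −7.13 to −5.86 while Gja1 moves from −4.42 to −2.30.

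In matured oocytes the 10 transcripts were too low for most comparisons of age or co-culture. For IVM-MII-12m minus IVM-MII-6wk 1 of 10 was lower by at least 1, Nupr1, where 9.08% of all genes were, and 0 were higher (18.1%). Without IVM-MII-6wk oocyte 2 the difference of Nupr1 was 0.00, and Malat1 was higher by 1.45 (means of 50.3 and 9.62 CPM). For MSC-IVM-MII-12m minus MSC-IVM-MII-6wk none differed by that much, where 15.2% of all genes were lower and 7.73% higher. With MSC co-culture at 6 weeks 3 of 10 were lower (Gja1, Nupr1 and Malat1; 5.22% of all genes) and 0 higher (16.2%). Nupr1 was at least 64.0-fold lower and Malat1 10.1-fold lower by mean, both relative to a group that includes IVM-MII-6wk oocyte 2. Without that oocyte Gja1 and Nupr1 had no count in either group, and Malat1 was at 30.6 CPM with co-culture and 9.62 CPM without it, a difference of 0.45, so none of the 3 was lower by 1. The median of the 6 filtered transcripts went from −0.81 to 0.00, and over all 10 with every oocyte kept it was −0.09. Within shared title prefixes the median of the 6 was −0.67 at 6 weeks and −0.19 at 12 months. With co-culture at 12 months 1 of 10 was lower, Fos (15.2% of all genes), which had 8.82 CPM in 1 IVM-MII-12m oocyte and none in the MSC-IVM-MII-12m oocytes, and 0 were higher (10.3%).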

How the data were processed

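Single oocytes were profiled by RNA sequencing. The authors deposited, per the file headers, expected counts and TPM for 47069 Ensembl genes in each oocyte. Per the submitters' processing notes, TopHat2 2.1.1, Cufflinks (no version), Trim Galore 0.4.5 and FastQC 0.11.8 were used with the build GRCm38.p5 (mm10). For the counting, the tool, annotation and strand setting were not given in the sources used here. Rounded counts received TMM factors from edgeR 4.0.16 under R 4.3.3, whose filterByExpr left 12037 genes. Symbols and coordinates came from GENCODE M21 (46488 identifiers matched), and promoters from RefSeq. DESeq2 1.42.0 gave size factors for an alternative only. Other steps used Matplotlib 3.10.9, SciPy 1.17.1, pandas 2.3.3 and NumPy 2.4.6 in Python 3.11.15.

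A difference is that of 2 group means of log2(CPM + 1), with a pseudocount of 1, and 7 comparisons were made. Shares of all genes that were higher, lower or without overlap in a comparison are over the 12037 filtered genes unless stated otherwise. Limits from a count of 0 use 3 counts per library and cover counting error only, since the labels name no molecular identifiers. Totals ran from 1914072 to 9193559 counts. No 2 libraries agreed within sampling noise (153 pairs, lowest chi-square per degree of freedom 24.9). The scripts were tested on simulated counts. The 10 transcripts and all gene lists were chosen with earlier results of these data known.

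Named genes were the 10 transcripts, up to 5 genes of each list by highest CPM, every list gene at 20 CPM or more in the oocyte with the highest sum, defining markers at 0, the 10 genes most like the set and 5 most like Inha, and the 15 that stood out most in that oocyte, leaving out predicted genes, Riken clones and pseudogenes. A few genes that this rule selects are not reported here. Some further list genes were named after their values were seen, as were the genes of IVM-MII-6wk oocyte 2 in the closing section. Alternatives were other scalings, TPM, pseudocounts of 5 and 0.1, no filter, a count minimum of 5, thinning, title prefixes and each oocyte left out with the scaling kept. All 10 transcripts, and the list of activin and inhibin genes, without GV-12m oocyte 3 were added after seeing the data.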

Additional observations from a re-analysis of the deposited data

How the results depend on the processing

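Of the medians and the covariation recomputed under other settings, 83 values stayed within the spread used, 12 moved past it and 2 turned direction, both without GV-12m oocyte 3: GV-12m minus GV-6wk to −0.15 and the median r of GV oocytes to −0.086. For the medians this is the spread between oocytes, which was 3.57 and 3.65 in the comparisons with GV-12m, widened by its oocyte 3. For the covariation it was 0.419, the SD of the medians with 1 oocyte left out. Staying within such wide spreads says little. A further 2 medians, both smaller than 1, crossed 0: IVM-MII-12m minus IVM-MII-6wk went from −0.35 to 0.12 without IVM-MII-6wk oocyte 2, and MSC-IVM-MII-12m minus IVM-MII-12m from −0.34 to 0.03 without IVM-MII-12m oocyte 1. With a pseudocount of 0.1 the medians were −2.46 for IVM-MII-6wk minus GV-6wk, −1.69 for MSC-IVM-MII-6wk minus IVM-MII-6wk and 0.21 for MSC-IVM-MII-12m minus MSC-IVM-MII-6wk. For MSC-IVM-MII-12m minus IVM-MII-12m, −0.34 became −0.19 in TPM, −0.12 with a pseudocount of 5, 0.00 over all 10 transcripts and −0.19 within title prefixes. Leaving out 1 oocyte gave −1.63 to −0.55 for maturation at 6 weeks and −4.82 to −1.11 at 12 months, −1.21 to 0.00 and −0.37 to 0.03 for co-culture, −0.15 to 2.78, −0.76 to 0.12 and 0.00 to 0.05 for age in GV, IVM-MII and MSC-IVM-MII oocytes, and −0.086 to 0.949 for the median r. The cause was not tested beyond the oocyte left out. Of 29 differences of at least 1, 0 changed sign under any of 3 other scalings, while the median of all genes for IVM-MII-12m minus GV-12m moved from −0.52 to −0.68 (DESeq2 size factors) or −0.35 (TPM). Without the filter the shares of all genes fell, for example from 39.0% to 25.1% lower. No paired analysis was possible because the labels give no replicate numbers and the oocyte numbers only follow deposit order. With 3 oocytes a group and 1 to 5 counts behind many levels, small differences were not detectable at this depth.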

Other observations

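IVM-MII-6wk oocyte 2, which held Nupr1 and Malat1, also held transcripts that no list covered. They were ranked after its levels were seen, among named genes of at least 20 CPM in any oocyte, and carry no test. Spp1, the osteopontin gene, was at 2342 CPM, from 7540 counts, and at most 1.39 CPM in any other oocyte. Cd63, a tetraspanin gene of endosomes and lysosomes, was at 87.9 CPM against at most 11.7 CPM. Hmox1, the heme oxygenase 1 gene, was at 67.1 CPM against at most 10.5 CPM, and Slc40a1, the iron exporter ferroportin gene, at 27.6 CPM against at most 3.90 CPM. Gm2a, a lysosomal activator protein gene, was at 48.8 CPM against at most 7.88 CPM, the latter in GV-12m oocyte 3. Cdkn1a, a cell cycle inhibitor gene, was at 47.8 CPM against at most 13.2 CPM, and Clu, the clusterin gene, at 33.5 CPM against at most 11.1 CPM. Of the blood and immune markers, Ptprc, Tyrobp, Lyz2 and C1qa had no count in this oocyte and Cd52 was at 0.932 CPM. The part of other cells in these levels was not tested.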
